A study of Mus musculus with 15 samples.

Results

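The aminoacyl-tRNA synthetases were followed in RNA-seq counts from mouse embryonic stem cells (mESCs) and embryoid bodies (EBs). The set holds 36 of the 55471 gene IDs in each count table: 20 genes for cytosolic enzymes and 16 for mitochondrial enzymes, the latter marked by the suffix 2 in their symbols. They were taken from a list of symbols, matched by Ensembl ID to GENCODE M21. The rule uses names and no measured values, but the set was proposed with earlier results of these data known. Poly(A) RNA was sequenced from 15 libraries, 3 in each of 5 groups, all from the mouse embryonic stem cell line E14. Wild-type mESCs in 2i/LIF medium, which keeps them undifferentiated, were nontreated or received 500 nM dTAG-13 for 72 h. The other 9 libraries carried the NSD1-dTAG knock-in, a degradation tag on the histone H3 lysine 36 methyltransferase NSD1. They were nontreated mESCs in the same medium, and EBs, suspension aggregates of differentiating cells, after 6 days in serum medium, either nontreated or with 500 nM dTAG-13 for those 6 days. dTAG-13 is a small molecule that brings a protein with the matching tag to an E3 ubiquitin ligase. All EBs thus carry the tag, every comparison of EBs with mESCs also compares 2 media and culture forms, and wild-type EBs were not analysed here.

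Aminoacyl-tRNA synthetases join each amino acid to its tRNAs, the step that sets the genetic code in protein synthesis. Nuclear genes encode all of them. One set of enzymes works in the cytosol, where several sit in a multi-synthetase complex, and the other is imported into mitochondria to charge the tRNAs of the mitochondrial genome. Gars and Kars supply both compartments from 1 gene each, Eprs joins glutamate and proline in 1 protein, and mitochondria make glutaminyl-tRNA by transamidation in place of a separate enzyme. Many cytosolic synthetase genes are known targets of ATF4, the transcription factor of the integrated stress response, and mitochondrial synthetase genes are not commonly listed among its targets.

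Each library held 18704591 to 29103958 gene counts, and each of the 36 genes had at least 155 counts in every library. Spike-in RNA was 0.292% to 0.496% of counts in the mESC libraries and 0 in the EB libraries, so no level here is per cell. In each group 1 library stood apart, with the shortest mean exon length behind its reads (4.99 to 5.50 kb, against 5.71 to 5.93 kb in the other 10 libraries): replicate 1 of nontreated wild-type and of NSD1-dTAG mESCs and replicate 3 of the other groups. The labels call the libraries of a group biological replicates and say no more, so a p-value here covers only their own spread, which may be technical. Nsd1 itself was 318, 411 and 392 CPM in wild-type mESCs, 406, 399 and 253 CPM with dTAG-13, 181, 372 and 356 CPM in NSD1-dTAG mESCs, 245, 227 and 202 CPM in nontreated EBs and 299, 284 and 219.9 CPM in EBs with dTAG-13. In each group the lowest of these values was that of the library that stood apart. The tag acts on the protein, so these transcript levels check no degradation. Summed TPM of 7 markers of pluripotency was 5436 to 5954 in NSD1-dTAG mESCs, 2631 to 2727 in nontreated EBs and 2028 to 2339 in EBs with dTAG-13, although the labels give the EBs the cell type of embryonic stem cells. Summed TPM of 4 markers of the primitive streak (T, Eomes, Mixl1 and Lhx1) was 32.9 to 41.8 in NSD1-dTAG mESCs, 370.4 to 1166 in nontreated EBs and 31.9 to 145 in EBs with dTAG-13.

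Levels per transcript length were compared between genes as TPM, counts per kilobase of merged exons scaled to the same total in each library. Cytosolic enzymes were the more abundant class in every group. In NSD1-dTAG mESCs the 20 cytosolic genes had a median of 209 TPM, from Cars at 91.02 ± 7.34 TPM (SD, n = 3) to Gars at 559 ± 40.6 TPM. The 16 mitochondrial genes had a median of 23.1 TPM, from Wars2 at 4.70 ± 1.12 TPM to Rars2 at 59.4 ± 3.87 TPM. Together the mitochondrial enzymes made up 8.75% ± 0.30 of synthetase TPM in NSD1-dTAG mESCs, 9.02% ± 0.27 in nontreated EBs and 9.22% ± 0.66 in EBs with dTAG-13. These shares differed by about the spread between libraries. With the length of the longest protein-coding transcript in place of merged exons, the shares were 9.47%, 9.48% and 9.98%, and the mitochondrial median in NSD1-dTAG mESCs was 36.3 TPM. The lowest cytosolic gene there was then Wars at 105 TPM and the highest mitochondrial gene Lars2 at 63.8 TPM. Gars, the glycine enzyme of both compartments, led in every group. Nars, the asparagine enzyme, was the second in mESCs at 454 ± 21.4 TPM and stood at 341 ± 21.8 TPM in nontreated EBs, beside Kars at 344 ± 23.9 TPM. The lowest mitochondrial enzyme was Wars2 in the mESC groups and Mars2 in the EB groups, at 6.55 ± 0.880 TPM in nontreated EBs. The plot of TPM by gene shows all 15 libraries.

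**Figure D1:**
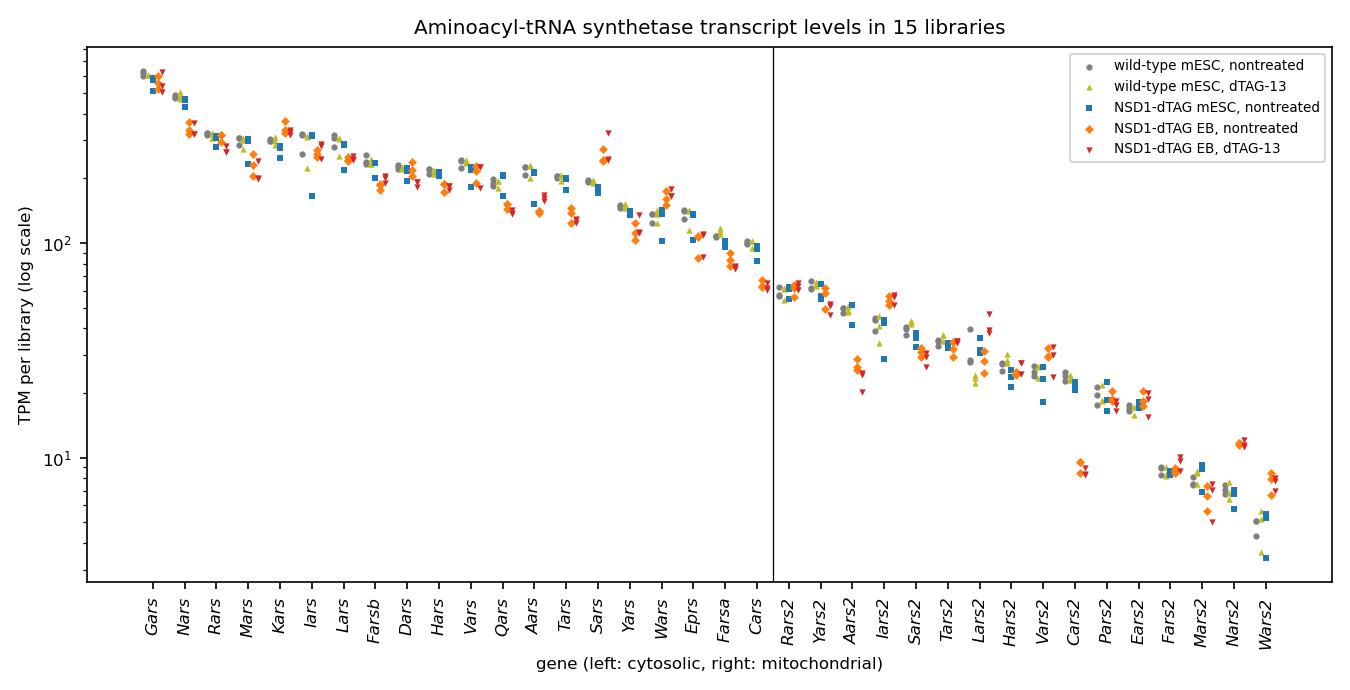
TPM of each of the 36 genes (log axis) in each library; genes are ordered by class and by their mean in NSD1-dTAG mESCs, and marker shape and colour give the group. Gars is the highest gene in every group, and in NSD1-dTAG mESCs the lowest cytosolic mean (Cars, 91.0 TPM) lies above the highest mitochondrial mean (Rars2, 59.4 TPM).

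The comparison of nontreated EBs with NSD1-dTAG mESCs asked what 6 days of EB culture changed in this line. Cytosolic synthetase transcripts were mostly lower in EBs: 12 of 20 fell, none rose, and 8 did not pass the test. Of the 16 mitochondrial enzymes, 6 fell, 2 rose and 8 did not pass. Counts were tested with edgeR's quasi-likelihood F test, and a gene was called at a Benjamini-Hochberg adjusted p below 0.05 over all tested genes. Among all 15193 genes tested, 59.5% were called in either direction and 26.3% were called lower. The share of cytosolic enzymes that fell was 60.0%, and the share of mitochondrial enzymes that fell was 37.5%. The median log2 fold change was -0.46 over the cytosolic enzymes, -0.23 over the mitochondrial enzymes and 0.02 over all tested genes. Whether the classes differed was not tested. These are bulk samples, in which fewer cells of a type and less RNA per cell cannot be told apart, and the part of the marker changes given above was not tested.

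Cars, the cysteine enzyme, was the cytosolic member with the lowest fold change. It had 199, 188 and 187 CPM in the 3 NSD1-dTAG mESC libraries and 106, 111 and 116 CPM in the 3 nontreated EB libraries. All EB libraries lay below all mESC libraries, as in 16 of 20 cytosolic and 11 of 16 mitochondrial enzymes and 32.3% of all tested genes, with a log2 fold change of -0.74 (SE 0.09, adjusted p = 0.000238). Tars, the threonine enzyme, went from 382, 359 and 345 CPM to 188, 205 and 239.9 CPM, a log2 fold change of -0.74 (SE 0.11, adjusted p = 0.000718). Aars, the alanine enzyme, went from 513, 599 and 581 CPM to 336, 329 and 358 CPM, with -0.68 (SE 0.11, adjusted p = 0.000753). In both genes the highest EB library was well below the lowest mESC library. Nars, the second most abundant transcript of the family in mESCs, went from 684, 614 and 601 CPM to 361, 370.3 and 444 CPM, with -0.65 (SE 0.12, adjusted p = 0.00161). The highest mESC value was that of replicate 1 and the highest EB value that of replicate 3, both libraries that stood apart.

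Qars, the cytosolic glutamine enzyme with no mitochondrial counterpart, had 398, 412 and 399 CPM in mESCs and 257, 251 and 263 CPM in EBs, a log2 fold change of -0.61 (SE 0.09, adjusted p = 0.000691). Its groups did not overlap. Eprs, the glutamate and proline enzyme of the multi-synthetase complex, had 681, 745 and 725 CPM in mESCs and 494, 489 and 431 CPM in EBs, with -0.56 (SE 0.11, adjusted p = 0.00303). Farsb, the beta subunit of the phenylalanine enzyme, had 191, 188 and 182 CPM and 119, 123 and 138 CPM, with -0.53 (SE 0.10, adjusted p = 0.00199). The alpha subunit, Farsa, fell by a similar size, -0.47 (adjusted p = 0.00666), and the groups of both subunits did not overlap. The other cytosolic enzymes that fell were Yars (tyrosine), -0.54, Mars (methionine), -0.49, Hars (histidine), -0.45, and Lars (leucine), -0.34. The Hars and Lars calls were each lost without replicate 1 or 2 of the EBs, and the Lars call also without replicate 2 or 3 of the mESCs.

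Among the cytosolic enzymes not called, Sars, the serine enzyme, had the highest fold change, 0.26 (SE 0.12, adjusted p = 0.0947). Its values were 322, 286 and 274 CPM in mESCs and 323, 312 and 394 CPM in EBs, and the highest mESC library overlapped the EB libraries. Kars had a log2 fold change of 0.12 and Wars, the tryptophan enzyme, 0.12. The other 5, Dars, Gars, Iars, Rars and Vars, lay between -0.24 and -0.18. Iars, the isoleucine enzyme, had 318, 507 and 490.2 CPM in mESCs and 340.1, 359.8 and 382 CPM in EBs. Its lowest mESC value came from the library that stood apart, and without that library its log2 fold change was -0.46 (SE 0.08, adjusted p = 0.00173). Without every library that stood apart, 17 cytosolic enzymes fell and 1 rose, and 8 mitochondrial enzymes fell and 2 rose, where 34.8% of all tested genes were called lower and 38.4% higher (73.2% in either direction). Of the genes not called, Sars and Vars were also called without replicate 1 of the mESCs and Gars without replicate 3 of the EBs.

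Cars2 and Aars2, the mitochondrial cysteine and alanine enzymes, fell most among all 36 genes. Cars2 had 59.2, 46.2 and 43.7 CPM in NSD1-dTAG mESCs and 15.8, 17.4 and 19.3 CPM in nontreated EBs. The highest EB library was far below the lowest mESC library, and the log2 fold change was -1.46 (SE 0.15, adjusted p = 6.33e-05), a level 2.76-fold lower. Cars2 (ENSMUSG00000056228.10, chr8:11513977-11550783 on the minus strand, GRCm38) shares 422 bp of exon with Naxd on the opposite strand, and the strand that was counted is not given in the sources used here. Aars2 (ENSMUSG00000023938.8, chr17:45506841-45520843 on the plus strand) overlaps no other annotated exon. It had 72.1, 74.2 and 71.7 CPM in mESCs and 31.5, 34.6 and 35.1 CPM in EBs, with -1.06 (SE 0.10, adjusted p = 3.94e-05). The replicates of each group were within a few CPM of each other, far from the other group.

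Mars2, the methionine enzyme, had 28.5, 30.4 and 30.5 CPM in mESCs and 21.5, 18.9 and 17.8 CPM in EBs, with -0.58 (SE 0.12, adjusted p = 0.00428). Sars2, the serine enzyme, had 39.5, 36.5 and 36.95 CPM and 26.3, 27.1 and 27.1 CPM, with -0.45 (SE 0.10, adjusted p = 0.00574). Neither gene's groups overlapped. Lars2, the leucine enzyme, had a log2 fold change of -0.47 (adjusted p = 0.0208) and Tars2, the threonine enzyme, -0.31 (adjusted p = 0.0452). The Lars2 call was lost without replicate 2 of the nontreated EBs (adjusted p = 0.0856). Lars2 is read with a limit: its counts follow those of 4 noncoding features, 1 of which overlaps an 18S ribosomal RNA pseudogene, described with its values in EBs given dTAG-13. As a percentage of the counts of one of them, Gm42418, Lars2 was higher in EBs, 16.05, 15.6 and 15.02 against 12.3, 13.3 and 13.3 in mESCs, without overlap (p = 0.1, two-sided exact permutation test, the smallest p this design allows). Gm42418 itself fell, -0.74 (adjusted p = 0.00387). Of the other features, Gm15564 fell more than Lars2, -0.998 (adjusted p = 0.00293), and Mir6236 by about as much, -0.48 (adjusted p = 0.0193). Gm23935, at -0.02 (adjusted p = 0.928), was not called. The percentage was computed for Gm42418 alone, and whether Lars2 fell less than these features depends on the feature chosen. The Tars2 call was lost in 8 of 15 alternatives, among them those without replicate 2 or 3 of the mESCs and without any 1 of the EB libraries.

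Nars2 and Wars2 were the only 2 of the 36 genes that rose in EBs. Nars2, the asparagine enzyme (ENSMUSG00000018995.12, chr7:96951505-97064758 on the plus strand), had 14.6, 14.3 and 14.4 CPM in mESCs and 21.1, 20.5 and 22.3 CPM in EBs. Every EB library was above every mESC library, with a log2 fold change of 0.60 (SE 0.11, adjusted p = 0.00167). Wars2, the tryptophan enzyme and the least abundant member in mESCs, had 7.41, 9.48 and 9.50 CPM and 10.3, 11.9 and 14.1 CPM, with 0.50 (SE 0.17, adjusted p = 0.0317). Its call was lost without any 1 of the 3 mESC libraries, and without replicate 2 or 3 of the EBs. Vars2, 0.20, and Iars2, 0.27, were not called. The remaining mitochondrial enzymes, Ears2, Fars2, Hars2, Pars2, Rars2 and Yars2, lay between -0.31 and -0.17 and were not called.

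**Figure D2:**
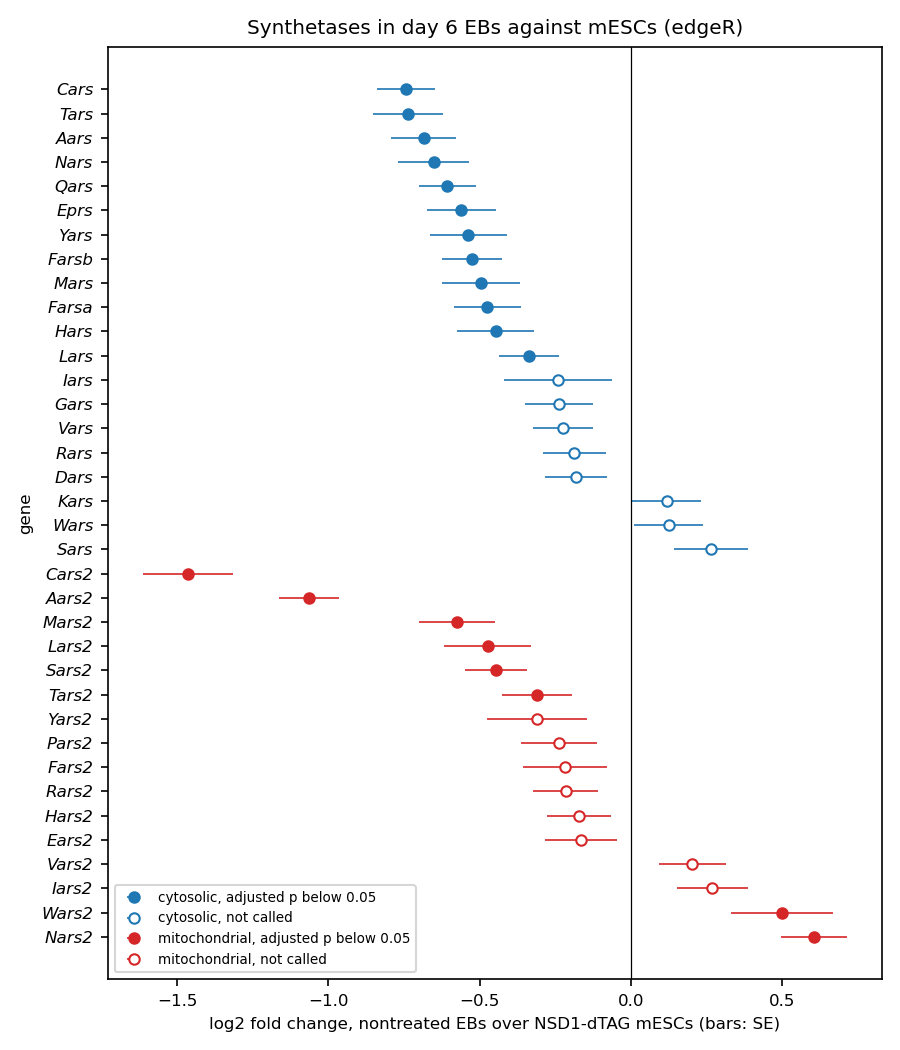
Log2 fold change of nontreated EBs over NSD1-dTAG mESCs for each gene, with the standard error as a bar; filled points passed an adjusted p below 0.05 in edgeR. The cytosolic enzymes (blue) run from -0.74 to 0.26, and the mitochondrial enzymes (red) from -1.46 to 0.60.

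In EBs grown with dTAG-13, Cars2 was at 14.7, 15.2 and 18.02 CPM, Nars2 at 19.5, 19.5 and 23.5 CPM, Cars at 100.1, 99.4 and 119 CPM and Tars at 185, 191 and 203 CPM. For all 4 genes these values overlapped those of the nontreated EBs given above. The heat map of CPM shows the 36 genes in both EB groups beside the mESC groups.

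**Figure D3:**
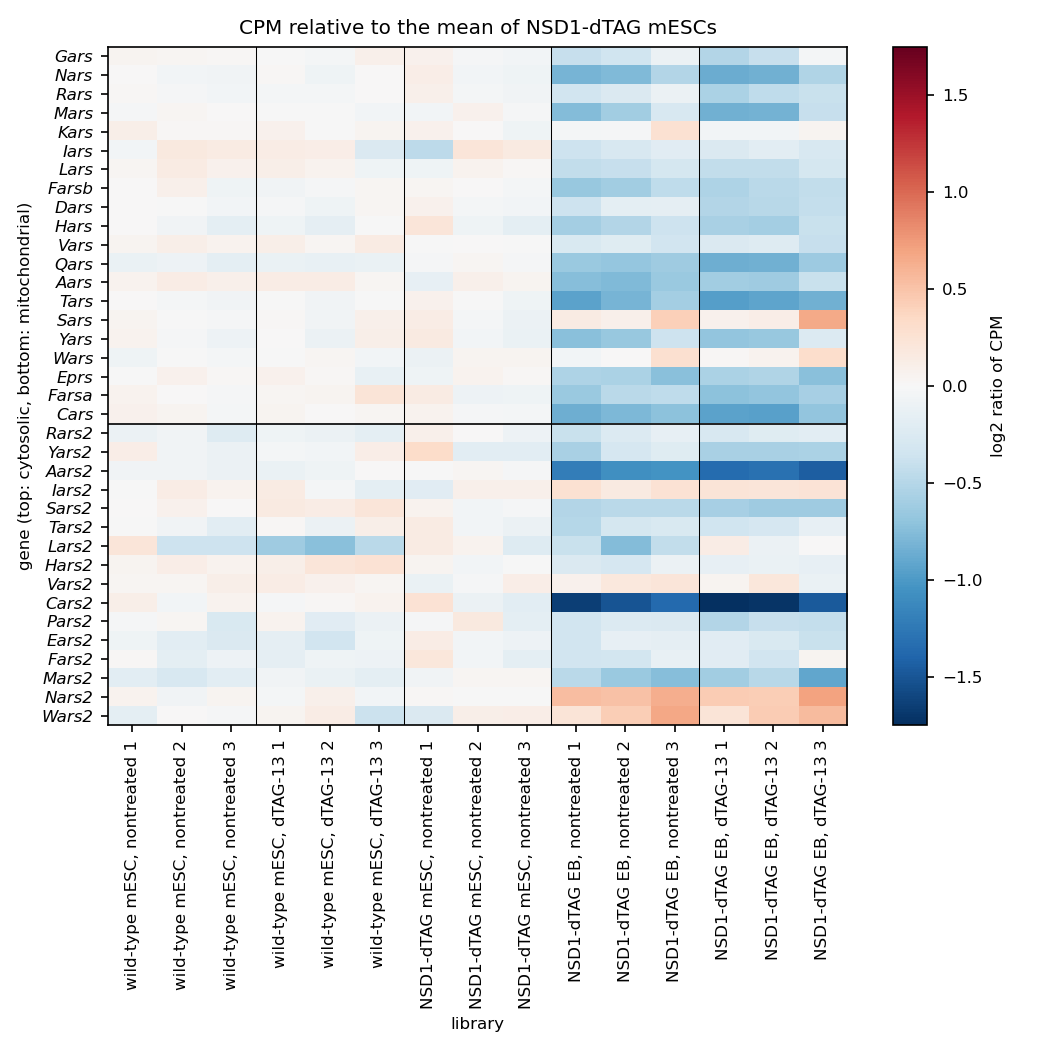
Log2 ratio of each library's CPM to the mean of the 3 NSD1-dTAG mESC libraries, for 36 genes (rows, cytosolic above the line) and 15 libraries (columns). Cars2 and Aars2 are low, and Nars2 is high, in all 6 EB libraries, and Lars2 varies between libraries of the mESC groups.

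Within the cytosolic class, the calls were spread over known subgroups. Of the 8 enzymes of the multi-synthetase complex 4 fell, and of the 12 outside it 8 fell. By the structure of the catalytic domain, 5 of 9 class I and 6 of 10 class II cytosolic enzymes fell, with Eprs, which holds both classes, counted in neither. Of 12 cytosolic enzymes commonly listed as ATF4 targets 8 fell, with a median log2 fold change of -0.52. Of the other 8 cytosolic enzymes 4 fell, with a median of -0.34. Among all tested genes 26.3% were called lower. None of these differences between subgroups was tested.

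For 15 amino acids a cytosolic and a mitochondrial enzyme could be set side by side as a ratio of TPM within each library. The ratio was lower in all nontreated EB libraries than in all NSD1-dTAG mESC libraries for 7 pairs, higher for 3 and overlapping for 5. Groups lying apart were common in this comparison: by CPM, 35.4% of all tested genes were higher and 32.3% lower without overlap. No such share was computed over ratios of other gene pairs, so these counts show no excess among the synthetases. The asparagine pair moved most: Nars over Nars2 was 75.1, 68.6 and 66.9 in mESCs and 27.4, 28.9 and 31.8 in EBs. Here the cytosolic transcript fell and the mitochondrial transcript rose. Isoleucine, valine, threonine, tryptophan, proline and histidine were the other pairs with lower ratios. The tryptophan ratio, for example, was 30.04, 25.9 and 26.04 in mESCs and 22.5, 20.1 and 20.5 in EBs.

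The pairs with higher ratios were those for serine, cysteine and alanine. The serine ratio was 5.25, 5.04 and 4.78 in mESCs and 7.90, 7.43 and 9.37 in EBs. The cysteine ratio was 3.69, 4.47 and 4.69 in mESCs and 7.36, 7.01 and 6.60 in EBs, with both transcripts lower in EBs and Cars2 the more so. The alanine ratio was 3.65, 4.14 and 4.16 and 5.47, 4.88 and 5.24, with both transcripts lower in EBs. Tyrosine had the smallest ratio by merged exon length, 2.10, 2.58 and 2.47 in mESCs. By the longest protein-coding transcript its mean was 4.33 and the smallest was that of cysteine, 2.30, so the order of the pairs depends on the length used. The change of a pair between libraries does not, since each gene's length is a constant. The plot of pair ratios shows these values with those of the EBs given dTAG-13.

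**Figure D4:**
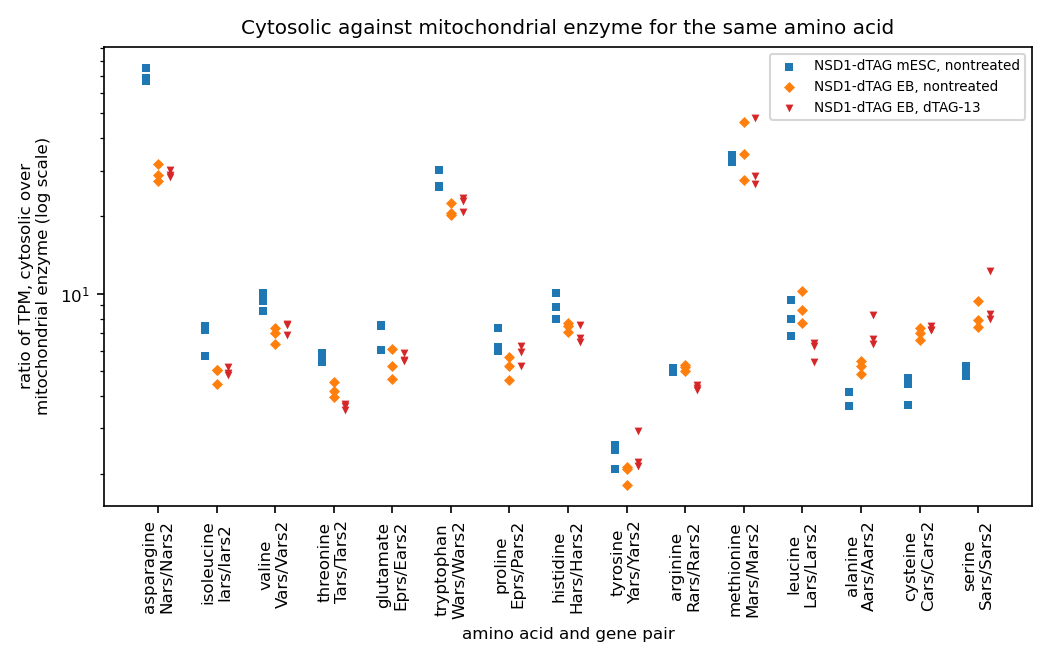
Ratio of TPM of the cytosolic over the mitochondrial enzyme for the same amino acid (log axis) in each library of NSD1-dTAG mESCs, nontreated EBs and EBs with dTAG-13; pairs are ordered by their change. The asparagine ratio lies between 66.9 and 75.1 in the mESC libraries and between 27.4 and 31.8 in the nontreated EB libraries, and the serine, cysteine and alanine ratios on the right are higher in EBs.

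Genes that work beside the synthetases were read from lists in the same comparison. Of 4 partners, Xpot, which exports tRNAs from the nucleus, fell, -0.60 (SE 0.11, adjusted p = 0.00227). The scaffolds of the complex, Aimp1, Aimp2 and Eef1e1, were not called, at -0.09, -0.19 and -0.42. These counts stand beside 26.3% of all tested genes called lower and 33.1% called higher. None of 4 genes of mitochondrial transamidation and formylation was called. Gatb and Qrsl1, subunits of the transamidase, had log2 fold changes of -0.14 and 0.01. At an unadjusted p below 0.05 the count over these 4 genes was also 0, against 9694 of all 15193 tested genes. Of 10 mitochondrial translation factors 4 fell, among them Tufm, the elongation factor that brings charged tRNAs to the mitochondrial ribosome, -0.88 (SE 0.13, adjusted p = 0.00052), and its exchange factor Tsfm, -0.79. Of 6 proofreading and related enzymes 2 fell, Aarsd1 and Prorsd1, and 2 rose, Dtd1, which removes D-amino acids from tRNAs, and Sepsecs, which makes selenocysteinyl-tRNA.

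Of 28 genes of the ATF4 pathway outside the synthetase family, 15 fell (53.6%) and 6 rose (21.4%). Among all tested genes 26.3% were called lower and 33.1% higher, and this difference was not tested. Atf4 itself fell, -0.59 (SE 0.14, adjusted p = 0.00645), from 375, 289 and 286 CPM in mESCs to 197, 187 and 228 CPM in EBs. Genes of amino acid and one-carbon metabolism were among those that fell: Asns, asparagine synthetase, -1.50, Psph, the last step of serine synthesis, -1.71, and Shmt2, of mitochondrial folate metabolism, -1.44. The genes that rose were led by Ddit4, 3.94, Atf3, 4.28, and Cebpb, 2.78. The list thus held changes in both directions. In the Myc family of 6, Mycl rose, 1.23, Max fell, -0.39, and Myc was not called.

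Promoter sequence was read for the synthetases because ATF4 binds a short element, the C/EBP-ATF response element. RefSeq promoters (GRCm38.p6, 250 bases before to 50 bases after the start) were matched for 26 of the 36 genes. Those not matched were Cars, Hars, Lars, Mars, Nars, Rars, Vars, Wars, Hars2 and Pars2. The letters TGATGNAA, searched on both strands, were in promoters of 5 of the 26 genes (19.2%) and in 3.97% of all 32851 promoters. All 5 were cytosolic genes, 5 of the 12 matched, and all were among the 7 matched genes listed as ATF4 targets. None of the 14 matched mitochondrial genes held them in a promoter. The share of the synthetases counts genes and that of all promoters counts promoter entries, of which a gene may have several. The list of ATF4 targets was chosen from general knowledge of ATF4 targets, some of them known through such sites, so this overlap is a description. One match for each of the 5 genes is shown 5′ to 3′ on the gene's strand, in capitals, with 10 bases on either side; distances are to the first capital, and coordinates are those of the whole stretch.
Tars, starting 15 bases before the start, chr15:11399656-11399683: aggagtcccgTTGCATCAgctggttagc
Aars, from base 10 after the start, chr8:111033841-111033868: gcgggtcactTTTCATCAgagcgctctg
Gars, starting 30 bases before the start, chr6:55037961-55037988: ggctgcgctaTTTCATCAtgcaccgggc
Iars, from base 8 after the start, chr13:49682127-49682154: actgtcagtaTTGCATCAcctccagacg
Yars, from base 4 after the start, chr4:129189896-129189923: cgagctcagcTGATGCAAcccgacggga
The Yars match reads on the gene's strand and the others on the opposite strand. Of these 5 genes, Tars, Aars and Yars fell in EBs and Gars and Iars were not called. The E-box CACGTG, a site of Myc and related factors that reads the same on both strands, was also in promoters of 5 of the 26 genes (19.2%). It was in 7.15% of all promoters.
Tars, from base 20 after the start, chr15:11399624-11399649: cgcctgtggcCACGTGgcgcacgcgc
Aars, starting 146 bases before the start, chr8:111033686-111033711: tcaaccctgtCACGTGacactccatg
Iars, starting 69 bases before the start, chr13:49682051-49682076: ccaatcgccaCACGTGttgtttgtag
Farsb, starting 39 bases before the start, chr1:78488921-78488946: agacaggcatCACGTGagacagccca
Ears2, from base 22 after the start, chr7:122067050-122067075: cgaaggagccCACGTGtgtgtttcta
Ears2 was the only mitochondrial gene with the E-box and was not called in EBs. Tars, Aars and Iars held both elements. The RefSeq start of Aars lies inside the longer gene that GENCODE annotates.

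The comparison of EBs with and without dTAG-13 asked what the degrader changed in EBs of the tagged line. No cytosolic synthetase was called, and 1 mitochondrial synthetase, Lars2, was called higher. Among all 15236 genes tested 6.76% were called and 3.98% were called higher. All 4 primitive streak markers had a mean of at least 1 TPM in both EB groups, and their summed TPM, given above, did not overlap between them; the part of this difference in the results below was not tested. The median log2 fold change was -0.02 over the cytosolic enzymes, -0.03 over the mitochondrial enzymes and -0.01 over all tested genes. By edgeR 4 of the 36 genes had an unadjusted p below 0.05, as did 3313 of all 15236 tested genes. Of the 36 genes DESeq2 called Lars2 alone. Dars, the aspartate enzyme, was the lowest of the cytosolic enzymes, -0.24 (SE 0.09, adjusted p = 0.143), with 231, 262 and 265 CPM in nontreated EBs and 207, 209.9 and 221 CPM with dTAG-13. Its groups did not overlap, and it was called lower without the libraries that stood apart and in the fit to all 15 libraries. Aars2 was the lowest of the mitochondrial enzymes, -0.25 (SE 0.09, adjusted p = 0.169), with 31.5, 34.6 and 35.1 CPM and 28.5, 29.5 and 26.8 CPM, again without overlap, and it was called lower in the fit to all 15 libraries (adjusted p = 0.0411). Aars was the highest of the cytosolic enzymes, 0.19 (SE 0.09, adjusted p = 0.277), with 336, 329 and 358 CPM and 368, 367 and 431 CPM, also without overlap. Groups lay apart in 1 direction or the other for 7 of the 36 genes, 2 higher and 5 lower, against 14.1% and 13.1% of all tested genes. Of the 28 ATF4 pathway genes 3 rose with dTAG-13, Ddit3, 1.62, Slc7a11, 1.51, and Trib3, 0.94, and none fell, while none of the 12 synthetases listed as ATF4 targets was called. In the Myc family Mycl fell, -0.76. The lists of partners, proofreading enzymes, transamidation and mitochondrial translation factors held no called gene. Mars, whose 3′ end shares 68 bp with Ddit3 on the opposite strand, had 180.1, 200.1 and 249 CPM and 169, 171 and 230.3 CPM.

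Lars2 (ENSMUSG00000035202.8, chr9:123366927-123462666 on the plus strand) had 89.7, 68.9 and 86.9 CPM in nontreated EBs and 128, 109 and 117 CPM in EBs with dTAG-13. The groups did not overlap, and the log2 fold change was 0.54 (SE 0.12, adjusted p = 0.0418), a level 1.45-fold higher. The call was lost without any 1 of the 6 libraries, with adjusted p-values from 0.0513 to 0.151, and with an offset for gene length (0.0694). With the replicate numbers as a block it was kept (0.54, adjusted p = 0.00982), but whether these numbers pair the samples is not known. In wild-type mESCs, Lars2 had 136, 91.1 and 90.8 CPM without and 76.3, 70.4 and 84.3 CPM with dTAG-13, and 129, 122 and 100.1 CPM in NSD1-dTAG mESCs. Here every treated library was below every nontreated library, with a log2 fold change of -0.46 (SE 0.15, adjusted p = 1). The difference of the 2 treatment responses was 0.99 (SE 0.21, adjusted p = 0.0264). The extremes of this difference among the other genes were -0.24 (adjusted p = 0.262) in Dars and 0.18 (adjusted p = 0.471) in Aars for the cytosolic enzymes and -0.27 (adjusted p = 0.235) in Aars2 for the mitochondrial enzymes. No other synthetase was called for it, and of 15855 genes tested 2.88% were, 1.6% higher and 1.27% lower. Tag and cell state change together between them and cannot be told apart.

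Lars2 also varied between libraries of 1 group, with wild-type mESC replicate 1 at 136 CPM beside 91.1 and 90.8 CPM. Across the 15 libraries, its deviations from the group means had a correlation of 0.97 with those of Gm42418, a noncoding gene that overlaps an 18S ribosomal RNA pseudogene in RefSeq. The correlation was 0.97 with Gm15564, 0.93 with Mir6236 and 0.92 with Gm23935. These 4 features were the closest among genes with a mean of at least 5 CPM, were chosen after their values were seen, and share each library's depth and composition with Lars2. The other 35 synthetases had correlations with Gm42418 from -0.58 (Iars) to 0.64 (Fars2). The longest run of identical bases between Lars2 and Gm15564 transcripts was 52, and for the other synthetases it was at most 18. With the other 3 features, Lars2 shared at most 13 identical bases.

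Gm42418 had 559, 441 and 578 CPM in nontreated EBs and 655, 511 and 634 CPM in EBs with dTAG-13, which overlap, and a log2 fold change of 0.19 (adjusted p = 0.501). As a percentage of Gm42418, Lars2 was 16.05, 15.6 and 15.02 in nontreated EBs and 19.5, 21.4 and 18.5 in EBs with dTAG-13. These groups did not overlap, with p = 0.1 by a two-sided exact permutation test, the smallest p that 3 against 3 libraries allow. In wild-type mESCs the percentage was 12.8 ± 1.2 without and 13.2 ± 0.6 with dTAG-13 (p = 0.6, same exact test). Of the other features, Gm23935 was called higher in EBs with dTAG-13, 0.61 (adjusted p = 0.0342). Gm15564, at 0.60 (adjusted p = 0.0651), and Mir6236, at 0.34 (adjusted p = 0.128), were not called. The percentage was computed for Gm42418 alone. The log2 fold change of Lars2, 0.54, lay below those of Gm23935 and Gm15564. Whether Lars2 rose beyond these features therefore depends on the feature chosen. Gene counts do not show which transcript a read came from, so Lars2 counts may hold reads of ribosomal RNA origin, in every group and comparison. This was not tested, and each Lars2 value above is a value of the count and may not be one of the transcript.

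**Figure D5:**
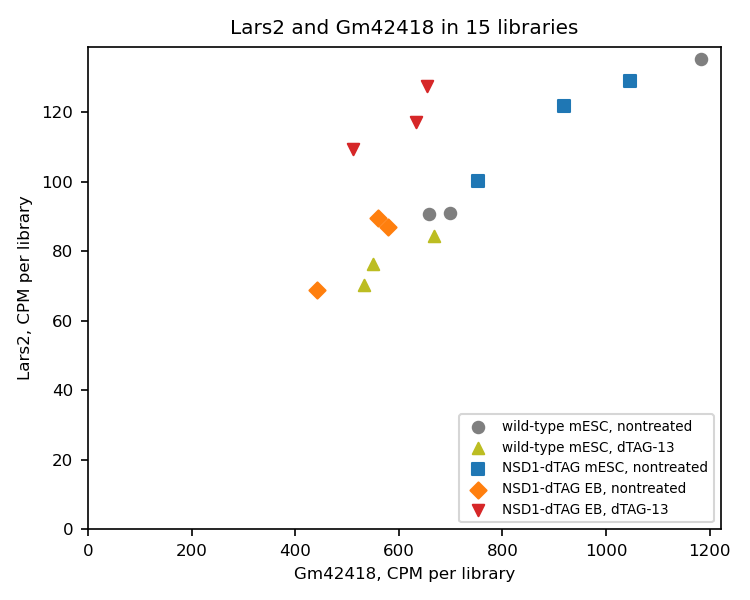
CPM of Lars2 against CPM of Gm42418 in the 15 libraries, both axes from 0, with marker shape and colour for the group. The 3 libraries of EBs with dTAG-13 (109 to 128 CPM of Lars2) lie above the other libraries with like levels of Gm42418. The other features that varied with Lars2 are not drawn.

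NSD1-dTAG mESCs were compared with wild-type mESCs to see what the line differed in before any degrader. No synthetase was called by edgeR, and 1.86% of 13895 tested genes were, 0.547% higher and 1.32% lower. DESeq2 also called 0 of the 36. In edgeR 1 of them, Mars2, had an unadjusted p below 0.05, as did 1957 of all 13895 tested genes. Mars2 was the highest of the mitochondrial enzymes, 0.20 (SE 0.08, adjusted p = 0.322), with 26.1, 24.6 and 26.3 CPM in wild-type and 28.5, 30.4 and 30.5 CPM in NSD1-dTAG mESCs, and its groups did not overlap. Hars2, the histidine enzyme, was the lowest of that class, -0.09 (adjusted p = 0.728), with 33.2, 34.7 and 33.4 CPM and 33.2, 31.00 and 32.05 CPM, where every NSD1-dTAG library lay below every wild-type library by a small margin. Groups lay apart in that direction in 11.5% of all tested genes. Among the cytosolic enzymes Qars was the highest, 0.11 (SE 0.07, adjusted p = 0.556), with 371, 381 and 358 CPM and 398, 412 and 399 CPM, and Iars the lowest, -0.10 (adjusted p = 0.878). Iars had 423, 495 and 484 CPM in wild-type mESCs, and its NSD1-dTAG values given above overlap these. Of the gene lists read beside the synthetases, Myc, 0.55, was the 1 gene called. None of the 28 ATF4 pathway genes was called, and their median log2 fold change was -0.11. Their groups lay apart lower for 10 genes and higher for 0, against 11.5% and 10.0% of all tested genes, which was not tested. Without the library that stood apart in each group, 7 of the 36 genes were called: Lars2, Mars2 and Qars higher, and Cars2, Gars, Lars and Vars lower. In that fit 22.7% of all tested genes were called, 11.5% higher and 11.2% lower, so 7 of 36 is near the share over all genes. It left 2 libraries in each group.

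Wild-type mESCs with and without dTAG-13 gave the background of the compound where no tag is present. No synthetase was called by edgeR or DESeq2, and 0.0% of 13784 genes tested in edgeR were. The only 1 of the 36 genes at an unadjusted p below 0.05 was Lars2, whose values are given above. Over all 13784 tested genes the count at that threshold was 229. Without the libraries that stood apart Lars2 was called lower. The log2 fold changes of the 20 cytosolic enzymes lay between -0.09 (Iars) and 0.09 (Farsa), and the groups of all 20 overlapped. Iars had 481, 475 and 367 CPM with dTAG-13, its lowest value again in the library that stood apart, and Farsa went from 149, 144 and 140.0 CPM to 147, 148 and 167 CPM. Of the mitochondrial enzymes, Sars2 and Mars2 were higher and Lars2 lower without overlap, against 3.02% and 2.87% of all tested genes. Sars2 was the highest of the mitochondrial enzymes, 0.14 (SE 0.06, adjusted p = 1), with 37.9, 39.5 and 37.7 CPM without and 42.1, 41.1 and 43.6 CPM with dTAG-13. Over all 36 genes the median log2 fold change was 0.00.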

How the data were processed

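Poly(A) RNA-seq of 15 mouse libraries was used. The deposited tables, 1 per library, hold raw counts of reads for each gene. Per the submitters' processing notes, the tools were bcl2fastq 2.20.0.422, DESeq2 1.30.0 and STAR, and mm10 and GRCm38.p6 the builds. The labels' protocols name a strand-specific kit, but which strand and which annotation were counted is not given in the sources used here. Of the 36 genes, 13 share exon bases with a gene on the opposite strand. IDs were matched to GENCODE M21 (GRCm38) for symbols, coordinates and exon lengths. ERCC spike-ins entered neither library sizes nor tests.

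Each comparison was fitted to its own libraries with edgeR 4.0.16 in R 4.3.3 (TMM, filterByExpr, quasi-likelihood F test, Benjamini-Hochberg), with DESeq2 1.42.0 among the alternatives. Printed CPM use TMM factors over all 15 libraries. TPM use merged exon lengths and compare genes within libraries; between groups the median of all tested genes moved by 0.25 on the log2 TPM scale (EBs over NSD1-dTAG mESCs) and by -0.03 in CPM, so changes are taken from counts. Relative to that median, the cytosolic enzymes stood at -0.46 in TPM and -0.47 in CPM. Transcripts of the mitochondrial genome were 4.50% to 5.66% of TPM in NSD1-dTAG mESCs and 0.544% to 2.35% in nontreated EBs.

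The 36 genes and all lists were chosen with earlier results of these data known. Values in every library are given for called members (up to 12 per comparison by adjusted p), for the highest and lowest of each class and for Nsd1; other members are given by range, and other lists as counts with up to 4 called genes. The scripts were tested on simulated data. No replicate pair was identical, and all differed by more than counting noise. Same-numbered libraries deviated together in the knock-in comparison (correlations 0.77, 0.50 and 0.49) and in EBs with and without dTAG-13 (0.25, 0.36 and 0.40). In both comparisons the library that stood apart has the same replicate number in each group. The correlations therefore cannot tell paired samples from a shared trait of those libraries, and the replicate block is an alternative only.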

Additional observations from a re-analysis of the deposited data

Results flagged for a closer look

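The Lars2 count responded differently to dTAG-13 in EBs of the tagged line and in untagged mESCs, by the test of the difference itself. The log2 difference was 0.99 (SE 0.21, adjusted p = 0.0264) in edgeR. Lars2 was higher in all 3 treated EB libraries than in the nontreated ones, and lower in all 3 treated wild-type mESC libraries. The call held in 15 of 21 alternatives, whose log2 differences ran from 0.77 to 1.09 with adjusted p-values up to 0.105. Gm42418, which moved with Lars2 within groups, had a difference of 0.73 (adjusted p = 0.222), and Gm15564 had 1.14 (adjusted p = 0.0471). Gm23935 had 1.10 (adjusted p = 0.0504) and Mir6236 had 0.91 (adjusted p = 0.0606). A difference of this size was thus not particular to Lars2. Whether Lars2 counts hold reads of ribosomal RNA origin cannot be read from gene counts, and the part of these features in the difference was not tested.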

How the results depend on the processing

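In EBs against NSD1-dTAG mESCs, 20 genes were called, 15 of them in all 15 alternatives, and no called gene reversed in any comparison; counts ran from 15 to 22 when single libraries were left out and reached 29 in the fit to all 15 libraries. The calls of Hars, Lars, Lars2, Tars2 and Wars2 were lost in 4, 5, 1, 8 and 6 of these. With an offset for gene length the medians were -0.34 (cytosolic), -0.15 (mitochondrial) and 0.10 (all genes). For dTAG-13 in EBs, the count of 1 became 0 with the gene-length offset, 0 to 0 when single libraries were left out, 3 in the fit to all 15 libraries, and, in alternatives chosen after seeing the data, 2 without the libraries that stood apart and 3 with the offset as well. For the difference of treatment responses, the count of 1 became 0 with the gene-length offset, 0 with block and offset, 0 to 1 leaving out single libraries, and 2 without the libraries that stood apart with the offset. For dTAG-13 in wild-type mESCs, the count of 0 became 1 (Lars2) without the libraries that stood apart, and 1 with the offset as well. In NSD1-dTAG against wild-type mESCs, the count of 0 became 7 without those libraries (22.7% of all tested genes) and 11 with the offset as well. The log2 change in mitochondrial over cytosolic summed TPM was 0.05 in EBs over mESCs, 0.10 with CPM, 0.0032 with the longest protein-coding transcript length, 0.09 without Kars, Gars and Qars, 0.06 without Lars2, and 0.03 to 0.08 leaving out single libraries. The cause of these shifts was not tested. Apart from the shares printed, the share of all tested genes called was not computed for these alternatives. Their counts therefore cannot be set against all genes.

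With the replicate number as a block, 17 genes were called in EBs against NSD1-dTAG mESCs. Same-numbered libraries did not all deviate together there (correlations -0.28, 0.24 and -0.40). The counts were 1 for dTAG-13 in EBs, 0 for dTAG-13 in wild-type mESCs and 1 for the difference of treatment responses. In NSD1-dTAG against wild-type mESCs the count was 0 with the block, and 1 (Mars2) with the block and the gene-length offset. In the comparisons whose same-numbered libraries deviated together, the block alone changed no call of these genes. With 3 libraries a group, counting and replicate spread limit the precision of changes near a log2 size of 0.3.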
